A study of Homo sapiens with 10 samples.

Results

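Cells of 22RV1, a castration-resistant prostate cancer line in long use, that had been exposed to THZ531 for 4 h were compared with untreated cells of the same line by SLAM-seq. The comparison takes the libraries whose titles name THZ531 alone, replicates 1 and 2, and the libraries titled control, replicates 1 and 2, which makes 4 of the 10 libraries of the series. THZ531 is a covalent inhibitor of the kinases CDK12 and CDK13, and its dose is 150 nM in the description of the series and 100 nM in the study's methods. The controls carry the label "None" for treatment, and no vehicle is named for them in the labels. The other groups, of 2 libraries each, received SRPIN340, 50 µM Endovion or THZ531 together with Endovion, all for 4 h. SRPIN340 and Endovion were both used as inhibitors of the splicing kinase SRPK1. The levels of these groups do not enter the main contrast and are set beside it below. The tests are not independent of them, because the estimate of spread comes from all 10 libraries. The comparison with SRPIN340 and Endovion also reuses the THZ531 libraries. All cells were given 4-thiouridine for the last 10 min, and a read in which T was read as C (a T>C read) is taken to mark RNA made in that time. No library without 4-thiouridine is in the series, so T>C reads with another origin were not measured apart. The model is 1 cell line in culture, and the labels do not say whether the replicates were separate cultures, so that p-values measure the spread between these libraries, which may be technical.

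CDK12 and CDK13 bind cyclin K and phosphorylate the tail of RNA polymerase II while it elongates. CDK12 is known for keeping the polymerase from ending transcription at polyadenylation sites inside long genes, among them many genes of homologous recombination. In prostate cancer its gene is recurrently inactivated, and inhibitors of the kinase are studied for that reason.

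For each gene, 3 values were used: T>C reads as nascent RNA, all reads as total RNA, and the T>C reads as a share of all reads. Levels are given as CPM, counts for each 1000000 counts of the library's effective size (T>C CPM for nascent RNA and CPM for total RNA), so that they are relative to the library and say nothing of the amount of RNA in a cell. The 4 libraries had 37483970 to 52788183 mapped reads (35517462 to 53592904 over all 10), 1023879 to 1576121 T>C reads on genes, and a T>C share of 5.23% to 5.70%. Markers of the prostate luminal lineage were present as the label implies: 11 of 11 reached 1 CPM in all 4 libraries, with summed levels of 2124 and 2178 in control cells and 1793 and 1724 with THZ531. Endothelial markers were at 0 (3 of 3), 2 of 3 basal and 2 of 4 immune markers were at 0, 1 of 3 neuroendocrine markers, SYP, reached 1 CPM in all 4 (list sums of 20.8 and 25.7 in control cells and 24.4 and 23.0 with THZ531), and 1 of 5 fibroblast markers did (2.96 and 2.78 against 3.35 and 3.97). With 2 libraries a group, which library of a pair departs from the other cannot be told. The number of genes that rose in total RNA, 2438, fell most when control replicate 2 or THZ531 replicate 2 was left out. For some of the lists below, counts without these libraries are given.

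THZ531 changed the nascent RNA of genes in both directions in similar number. Of 9946 genes tested, 384 rose (3.86%) and 358 fell (3.6%) at a Benjamini-Hochberg adjusted p under 0.05 by edgeR's quasi-likelihood test, which gives every adjusted p below. These counts were 123 and 118 without THZ531 replicate 2 and 187 and 202 without control replicate 2. At the study's threshold, an unadjusted p under 0.05 with a log2 change of 1 or more in either direction, 5.66% rose and 6.33% fell. Total RNA, with far more reads behind each gene, had 2438 genes that rose (16.6%) and 2071 that fell (14.1%) among 14690, and 6.94% and 7.86% at the study's threshold. Leaving out THZ531 replicate 2 lowered the falls in total RNA to 1191, and leaving out control replicate 2 to 1492. The share of T>C reads changed in few genes, 12 up (0.121%) and 22 down (0.221%), or 2.14% and 2.29% at the study's threshold. Without control replicate 2 the shares had 6 rises and 2 falls, without THZ531 replicate 2 they had 4 and 1, and without control replicate 1 they had 25 and 65. Nascent and total RNA are counted from the same reads and largely moved together. Of the 384 genes that rose in nascent RNA, 334 (87.0%) also rose in total RNA and 0 fell, and of the 358 that fell, 311 (86.9%) also fell and 1 rose. In these bulk libraries a change in the number of cells of a kind and a change in RNA per cell cannot be told apart.

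The genes that rose most clearly in nascent RNA included regulators of transcription and RNA processing. MNAT1, which assembles the CDK7 kinase with cyclin H (chr14:60734742-60969965), had 3.19 and 4.78 T>C CPM in control cells and 103 and 159 with THZ531, a log2 fold change of 5.02 ± 0.37 (SE; adjusted p = 1.1e-15). The share of T>C reads in MNAT1 was unusually high with THZ531, as given in a later section. Whether all these reads are new RNA was not tested. NFYA, a subunit of the factor that binds CCAAT boxes, stood at 10.2 and 5.57 against 53.6 and 122 (log2 fold change 3.40 ± 0.41, adjusted p = 5.4e-08). Both THZ531 libraries lay far above both control libraries for these genes, a separation that the rule for naming genes requires. NUDT21, the small subunit of cleavage factor Im, went from 62.0 and 52.6 to 161 and 226 (log2 fold change 1.74 ± 0.22, adjusted p = 1.3e-07). MYC, whose levels were 84.3 and 66.1 without and 185 and 253 with THZ531, is 1 of the 12 genes named by the same rule.

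For MNAT1, NFYA, NUDT21 and MYC, cells given SRPIN340 or Endovion without THZ531 also lay above the controls. MNAT1 was at 103 and 113 T>C CPM with SRPIN340 and at 101 and 135 with Endovion, and NFYA at 30.9 and 44.7 and at 50.3 and 31.5. MYC stood at 140 and 130 with SRPIN340 and at 117 and 140 with Endovion. For these genes the control libraries were thus the lowest of the series, and what set their level was not tested.

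Other risers were higher in the THZ531 libraries than in SRPIN340 or Endovion libraries too. RCL1, which takes part in processing 18S ribosomal RNA, had 184 and 170 T>C CPM in control cells and 433 and 516 with THZ531 (log2 fold change 1.42 ± 0.18, adjusted p = 1.3e-07), beside 179 and 165 with SRPIN340 and 105 and 149 with Endovion. TMEM201, a protein of the inner nuclear membrane (chr1:9588911-9614877), went from 32.6 and 38.2 to 153 and 174 (log2 fold change 2.21 ± 0.28, adjusted p = 1.3e-07), and it was at 37.6 and 31.7 with SRPIN340 and 19.8 and 22.9 with Endovion. TAF5L, a subunit of a histone acetyltransferase complex, rose from 51.7 and 28.7 to 144 and 210 (log2 fold change 2.11 ± 0.28, adjusted p = 1.8e-07), with 36.9 to 47.8 over the SRPIN340 and Endovion libraries. These 3 genes also rose when THZ531 was added to Endovion, by log2 fold changes of 1.52, 1.83 and 1.65 (adjusted p = 2.5e-07, 0.00029 and 0.00029). The remaining risers named by the rule were PNRC1, IER5L, ARL6IP1, TM2D3 and the Sm protein gene SNRPF, with log2 fold changes between 1.16 and 2.09. Of the 12 named risers, 6 were called upward against the SRPIN340 and Endovion libraries. IER5L was called there (1.18), but PNRC1, ARL6IP1, TM2D3 and SNRPF were not (0.25, 0.49, 0.48 and 0.33). All 12 were called again whichever of the 4 libraries was left out, and 5 of the 12 were called in the THZ531 with Endovion libraries.

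**Figure D1:**
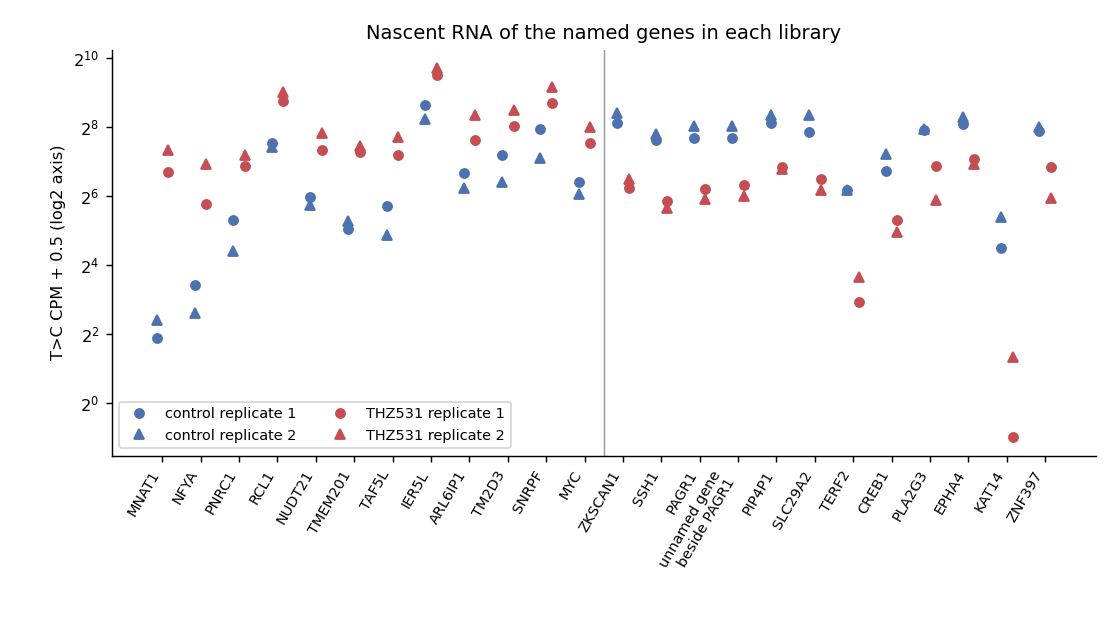
T>C CPM plus 0.5, on a log2 axis, of the 12 named genes that rose (left of the line) and the 12 that fell (right of it) in each library, control in blue and THZ531 in red, circles for replicate 1 and triangles for replicate 2. The rule that named these genes leaves no THZ531 library between the control libraries, and KAT14 reaches 0 reads in THZ531 replicate 1.

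The 12 genes named for their fall in nascent RNA had varied functions. ZKSCAN1, a zinc finger factor (chr7:100015572-100041689), had 278 and 340 T>C CPM in control cells and 74.3 and 88.8 with THZ531 (log2 fold change -1.93 ± 0.19, adjusted p = 1.9e-10). TERF2, the telomere-binding protein of shelterin (chr16:69355567-69408571), went from 72.2 and 71.7 to 7.11 and 12.1 (log2 fold change -2.95 ± 0.41, adjusted p = 5.9e-07). CREB1, the factor that binds cAMP response elements, went from 105 and 149 to 38.8 and 30.3 (log2 fold change -1.85 ± 0.27, adjusted p = 3.0e-06). The groups stood well apart for each of these, as the naming rule requires. KAT14, a subunit of the ATAC acetyltransferase complex, had 86 T>C reads in the control libraries together and 2 with THZ531, or 2.58% of the control level (95% interval 0.308% to 9.62%, counting error only).

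SSH1, the phosphatase that activates cofilin, dropped from 197 and 221 to 56.8 and 49.4 T>C CPM (log2 fold change -1.96 ± 0.22, adjusted p = 5.7e-09). SLC29A2, an equilibrative nucleoside transporter, went from 229 and 326 to 89.1 and 71.6 (log2 fold change -1.77 ± 0.23, adjusted p = 2.7e-07). PAGR1, a partner of the KMT2C and KMT2D methyltransferases, also fell, but it shares its reads with an unnamed overlapping gene, ENSG00000280893, and these cannot be told apart. Both are counted among the 12, which PIP4P1, PLA2G3, EPHA4 and ZNF397 complete, with log2 fold changes from -1.20 to -1.46. All 12 were called again when any of the 4 libraries was left out, all 12 also against the SRPIN340 and Endovion libraries, and 10 of the 12 fell when THZ531 was added to Endovion, the exceptions being PLA2G3 and KAT14.

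In total RNA the rule named TAF5L and TMEM201 again, with TUBGCP3 and SP1 also among the 5 it took upward. TUBGCP3, a subunit of the γ-tubulin complex, had 2.03 and 1.51 CPM in control cells and 17.5 and 19.2 with THZ531 (log2 fold change 3.36, adjusted p = 1.4e-06). SP1, the factor of GC boxes, rose from 20.5 and 22.6 to 57.3 and 66.9 (log2 fold change 1.53, adjusted p = 4.5e-06). Among the genes that fell, PCF11, which ends transcription at polyadenylation sites (chr11:83156988-83187451), went from 17.8 and 20.7 to 1.70 and 1.34 CPM (log2 fold change -3.64 ± 0.25, adjusted p = 8.2e-07). SMCR8, a partner of C9orf72, went from 27.4 and 34.8 to 6.52 and 5.95 (log2 fold change -2.31, adjusted p = 8.7e-07). TERF2 and the pair PAGR1 and ENSG00000280893 were named here too. All 10 were called in every fit that left out 1 of the 4 libraries, against SRPIN340 and Endovion, and in the THZ531 with Endovion libraries.

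The share of T>C reads fell in SSH1, whose nascent RNA fell further than its total RNA (log2 fold changes of -1.96 and -0.64). Of the SSH1 reads, 19.5% and 21.0% carried T>C conversions in the control libraries, against 8.79% and 7.57% with THZ531 (log2 change -1.43, adjusted p = 0.0021). GTF3C4, a subunit of the RNA polymerase III factor TFIIIC, went from 14.3% and 12.6% to 6.24% and 6.89% (log2 change -1.07, adjusted p = 0.0013), while its total RNA did not pass the test (adjusted p = 0.76). MRPL13, a protein of the mitochondrial ribosome, had a total RNA that rose and a nascent RNA with a log2 fold change of -0.17 (adjusted p = 0.80), and its share went from 19.4% and 27.7% to 8.40% and 5.08%. The shares that rose were less secure. GMEB2, whose share went from 3.84% and 2.13% to 9.97% and 10.5%, NDUFB7, PPIP5K2 and MNAT1 were among the 5 named, and 0 of the 5 were called without control replicate 2. Of the 5 named genes whose share fell, 2 were called without control replicate 2 and 1 without THZ531 replicate 2.

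Immediate early and AP-1 genes, the group of fast-acting regulators that cells switch on within minutes of a stimulus, held many rises in total RNA. There 32 of 55 members tested rose and 0 fell, with a median log2 fold change of 0.74 beside -0.01 over all genes. In nascent RNA 9 of 48 rose and 0 fell (median 0.53 beside -0.02). Over all genes 16.6% rose and 14.1% fell in total RNA, and 3.86% and 3.6% in nascent RNA. Each list count below for THZ531 against control with all 4 libraries is to be read against these shares. Fits without a library, against SRPIN340 and Endovion, or with THZ531 added to Endovion called other shares of all genes. At an unadjusted p under 0.05 by edgeR 1 member fell in total RNA and 0 in nascent RNA, and DESeq2 called 0 falls in either. JUNB, a subunit of AP-1 (chr19:12791486-12793315), had 107 and 90.8 T>C CPM in control cells and 212 and 244 with THZ531 (log2 fold change 1.20 ± 0.22, adjusted p = 0.00015). IER5L stood at 393 and 299 against 720 and 830 (log2 fold change 1.16 ± 0.16, adjusted p = 5.8e-07), and ZFP36L1, which promotes the decay of mRNAs with AU-rich elements, at 233 and 218 against 425 and 420 (log2 fold change 0.91 ± 0.17, adjusted p = 0.00015). In each gene both THZ531 libraries lay above both controls. JUN also rose, from 71.5 and 59.7 to 131 and 182 (log2 fold change 1.24, adjusted p = 0.00044).

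The Krüppel-like factors of the list moved the same way in total RNA. KLF10 had 18 and 11.2 CPM in control cells and 39.0 and 68.3 with THZ531 (log2 fold change 1.87, adjusted p = 0.0023), KLF4 4.95 and 2.99 against 13.1 and 21.5 (2.11, adjusted p = 0.00011), and KLF2 4.60 and 2.99 against 10.6 and 17.1 (1.85, adjusted p = 0.00019). KLF5, KLF9 and KLF11 rose by 0.76, 0.55 and 0.64 on the log2 scale. FOS and FOSB were rare transcripts throughout: FOS had 0.677 and 0.378 CPM without and 1.81 and 5.31 with THZ531, and FOSB 0.570 and 0.589 against 2.76 and 2.36 (adjusted p = 0.0023 and 0.0025). The largest fitted change in the list was that of DUSP5, a dual-specificity phosphatase, with 0.143 and 0.210 against 1.22 and 3.11 (log2 fold change 3.57). MCL1, a short-lived BCL2 protein, rose by 0.74 (adjusted p = 0.0011).

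The number of members called changed with the libraries compared, and so did the number over all genes. Leaving out control replicate 2 or THZ531 replicate 2 also lowered the rises over all genes. In total RNA 10.2% of all genes rose and 14.8% fell against SRPIN340 and Endovion. When THZ531 was added to Endovion, 2.29% of all genes rose and 5.92% fell. Without control replicate 2, 19 members rose and 1 fell in total RNA, and without THZ531 replicate 2, 20 rose. Against SRPIN340 and Endovion, 20 rose and 3 fell, and when THZ531 was added to Endovion 13 rose and 1 fell, with a median of 0.37. JUN and MCL1 were then among those not called, with log2 fold changes of -0.05 and 0.19 in the THZ531 with Endovion libraries, whereas JUNB rose there by 0.84, ZFP36L2 by 0.78 and IER5 by 0.68 (adjusted p = 0.040, 0.0018 and 0.0040).

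The promoters of 3 of these genes are shown because their nascent RNA moved together, with 250 bases before and 50 bases after the start, 5′ to 3′ on the gene's strand, from RefSeq in GRCh38.p14. Capitals mark TGACGTCA (the cAMP response element), TATAAA (the TATA box), CCAAT (the CCAAT box) and GGGCGG (the GC box) on either strand. JUNB lies on the plus strand at chr19:12791236-12791535, IER5L on the minus strand at chr9:129178212-129178511 and the second promoter of ZFP36L1 on the minus strand at chr14:68793367-68793666.
JUNB: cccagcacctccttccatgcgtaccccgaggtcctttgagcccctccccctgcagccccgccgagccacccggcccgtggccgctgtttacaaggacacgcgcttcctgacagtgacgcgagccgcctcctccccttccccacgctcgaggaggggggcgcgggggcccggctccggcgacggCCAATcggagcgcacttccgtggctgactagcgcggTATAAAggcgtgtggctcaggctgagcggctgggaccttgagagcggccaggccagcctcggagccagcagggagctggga
IER5L: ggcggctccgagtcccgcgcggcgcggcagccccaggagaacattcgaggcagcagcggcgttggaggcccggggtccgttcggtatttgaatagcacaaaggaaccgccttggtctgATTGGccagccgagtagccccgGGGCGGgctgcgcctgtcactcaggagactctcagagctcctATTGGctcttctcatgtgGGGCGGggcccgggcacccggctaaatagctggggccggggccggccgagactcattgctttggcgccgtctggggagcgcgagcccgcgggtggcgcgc
ZFP36L1: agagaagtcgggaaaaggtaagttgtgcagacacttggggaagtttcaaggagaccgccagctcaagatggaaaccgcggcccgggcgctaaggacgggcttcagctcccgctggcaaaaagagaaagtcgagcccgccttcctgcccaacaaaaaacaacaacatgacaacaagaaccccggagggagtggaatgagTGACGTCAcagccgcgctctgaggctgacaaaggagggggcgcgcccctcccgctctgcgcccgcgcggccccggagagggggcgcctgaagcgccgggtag
JUNB holds a TATA box whose first base lies 31 bases before the start and a CCAAT box 67 bases before it. IER5L holds CCAAT boxes at 132 and 68 and GC boxes at 110 and 50 bases before its start, and the second promoter of ZFP36L1 a cAMP response element at 52 bases before. The first promoter of ZFP36L1, which is not printed, holds no cAMP response element and has a CCAAT box at 59 bases before its start. Over the 59 promoters of the list (45 of 55 genes matched), 8.47% hold TGACGTCA, beside 1.85% of all 35116 promoters of this length, 20.3% hold TATAAA beside 11.5%, 37.3% hold CCAAT beside 34.6% and 69.5% hold GGGCGG beside 45%. A match of letters is a description of the window and not a site of binding.

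Genes of splicing regulators rose in total RNA. Of the SR proteins and their kinases, which choose splice sites, 21 of 37 rose and 0 fell, with a median log2 fold change of 0.48, and 6 of 34 rose in nascent RNA with 0 falling (median 0.31). DYRK2, a kinase of this list, had 51.1 and 47.1 CPM in control cells and 87.7 and 83.2 with THZ531 (log2 fold change 0.80 ± 0.13, adjusted p = 0.00044). SRSF5 went from 118 and 114 to 175 and 231 (0.81 ± 0.13, adjusted p = 0.00040), and CCNL1, a cyclin of splicing kinases, from 28.3 and 25.8 to 43.8 and 69.9 (1.07 ± 0.18, adjusted p = 0.00072). Both THZ531 libraries lay above both controls for these and for all 21, which restates the calls. The median of the 21 was 0.80, and DYRK3, at the top of the range with 3.49, had at most 0.536 CPM in these 4 libraries. By edgeR 0 members fell in total or nascent RNA at an unadjusted p under 0.05 either, and DESeq2 called 0.

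In nascent RNA the SR genes that rose were LUC7L2, SON, SRRM1, TRA2B, DYRK2 and PNISR. SON, a large protein of nuclear speckles, had 205 and 244 T>C CPM in control cells and 379 and 411 with THZ531 (log2 fold change 0.81, adjusted p = 0.00099), but -0.85 when only its best-covered interval was counted, so that its direction depends on how its 3′ ends are summed. LUC7L2 went from 93.3 and 73.3 to 182 and 254, and its reads may be shared with an overlapping gene. The list had 10 risers in total RNA without control replicate 2, 10 without THZ531 replicate 2, 15 against SRPIN340 and Endovion, and 4 when THZ531 was added to Endovion: RSRC2, ARGLU1, CCNL1 and DYRK2.

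Other parts of the splicing machinery also held more rises than falls. Among hnRNP genes, 13 of 30 rose and 1 fell in total RNA (median 0.27) and 5 of 30 rose in nascent RNA, and in the core spliceosome 15 of 62 rose and 0 fell (median 0.15; 3 fell at an unadjusted p by edgeR and 0 by DESeq2). HNRNPU, an abundant nuclear matrix protein, had 752 and 818 T>C CPM in control cells and 1069 and 1334 with THZ531 (log2 fold change 0.61, adjusted p = 0.0034), and rose by 0.53 also when THZ531 was added to Endovion (adjusted p = 0.046). HNRNPF went from 224 and 154 to 417 and 441 (1.17, adjusted p = 1.0e-05), but stood at 0.03 on top of Endovion. Without control replicate 2 these lists had 5 and 4 risers.

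Transcription elongation factors and their kinases also leaned upward, with 18 of 37 rising and 1 falling in total RNA (median 0.37) and 6 of 35 rising in nascent RNA. HEXIM1, the inhibitor of the elongation kinase P-TEFb, had 54.7 and 54.8 CPM in control cells and 133 and 211 with THZ531 (log2 fold change 1.65 ± 0.18, adjusted p = 3.9e-05). Its nascent RNA went from 75.4 and 21.5 to 269 and 504 T>C CPM (2.95, adjusted p = 0.046). It rose too against SRPIN340 and Endovion (1.75) and on top of Endovion (0.68, adjusted p = 0.030). CCNT2, a cyclin of P-TEFb, rose from 17.6 and 18 to 33.4 and 44.6 (1.13, adjusted p = 0.00011), and RTF1, which works with the PAF1 complex, from 102 and 96.4 to 188 and 196 (0.95, adjusted p = 2.0e-05). HEXIM2 was the member that fell, from 2.78 and 2.69 to 0.958 and 0.643. SETD2 had 0 reads in both control libraries and 45 with THZ531, at least 17.0-fold more when 3 reads over the control group are taken as the floor, and setting it to that bound leaves the list's median at 0.37. Without control replicate 2 the list had 8 risers.

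The RNA of the targets of THZ531 is given as a description. The compound acts on the proteins, so these levels cannot show whether the kinases were inhibited. CDK12 (chr17:39461486-39567559) had 64.8 and 81.4 CPM in control cells and 75.7 and 69.8 with THZ531, overlapping ranges with a log2 fold change of -0.01 ± 0.14 (adjusted p = 0.98). CDK13 was at 26.4 and 23.8 against 24.7 and 22.9 (-0.08 ± 0.15, adjusted p = 0.74). CCNK, their cyclin, passed the test narrowly, with 27.2 and 27.1 against 31.1 and 41.5 (0.42 ± 0.15, adjusted p = 0.047). In nascent RNA none of the 3 was called, with log2 fold changes of 0.25, -0.32 and 0.04 (adjusted p = 0.71, 0.66 and 0.97).

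Cleavage and polyadenylation factors split in both directions. In total RNA 11 of 31 rose and 8 fell (median 0.05), and in nascent RNA 5 of 30 rose and 4 fell. Beside PCF11, which had 55 T>C reads in the control libraries and 3 with THZ531 (6.06% of the control level, 95% interval 1.21% to 18.7%, counting error only), CPSF2 fell from 104 and 114 to 67.9 and 70.4 CPM (log2 fold change -0.66, adjusted p = 0.00046) and CPSF4 from 88.3 and 91.1 to 68.7 and 64.6 (-0.43, adjusted p = 0.012). Upward, SCAF8, which binds the polymerase tail and prevents early polyadenylation, went from 31.7 and 24.6 to 64.4 and 83.1 (1.39, adjusted p = 3.6e-05), and FIP1L1 from 31.1 and 24.1 to 50.8 and 56.9 (0.96, adjusted p = 0.00019). In total RNA the falls of PCF11, CPSF2 and CPSF4 and the rise of SCAF8 were called on top of Endovion too. In nascent RNA PCF11 fell there as well, by 2.53 (adjusted p = 0.025), whereas CPSF2 and CPSF4 stood at -0.18 and -0.43 (adjusted p = 0.89 and 0.40).

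**Figure D2:**
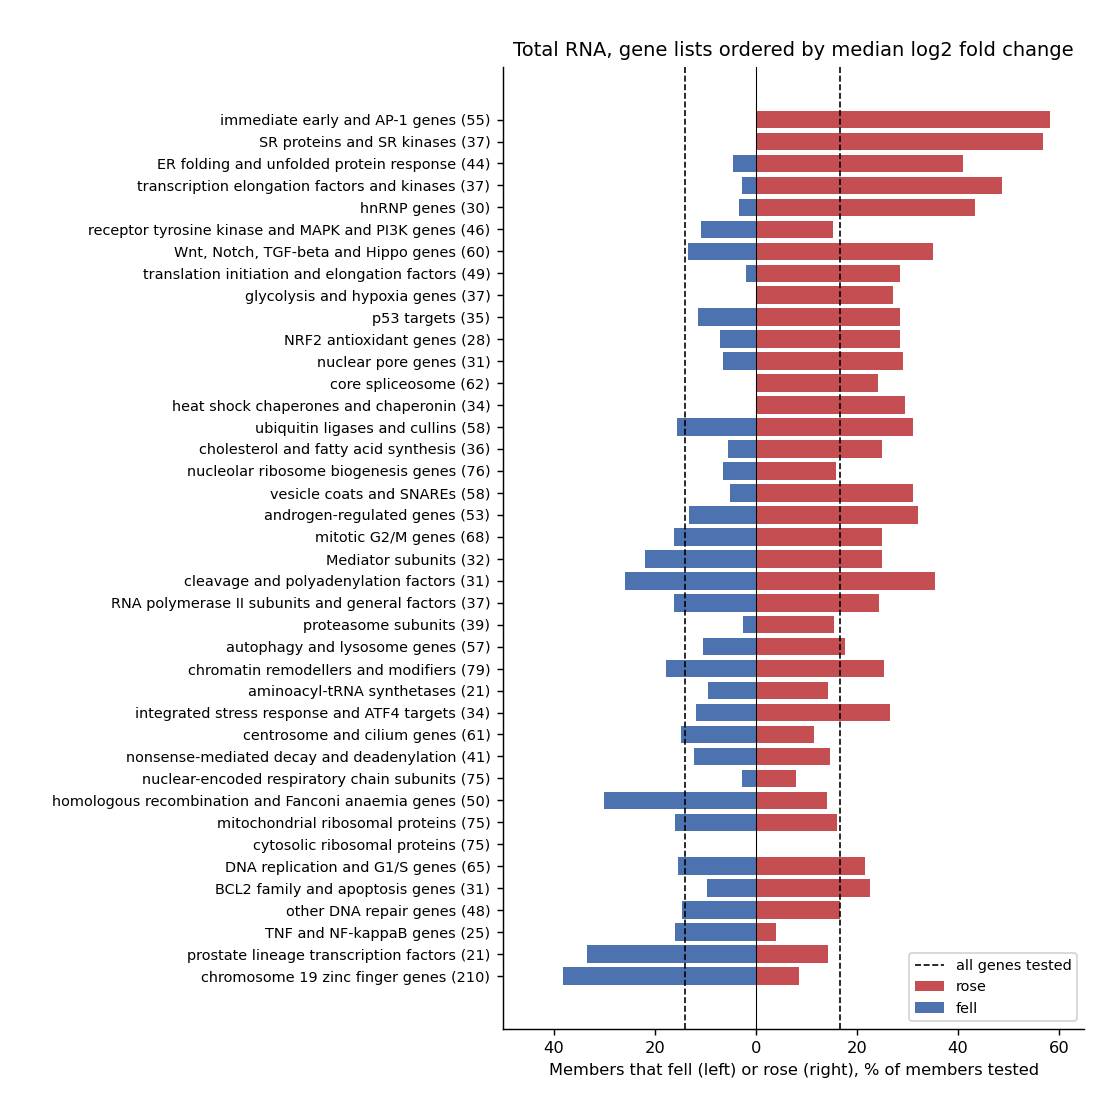
Share of the tested members of each gene list that rose (red, right) or fell (blue, left) in total RNA at an adjusted p under 0.05, with the number tested in brackets, ordered by the median log2 fold change, for lists with at least 20 members tested. Dashed lines give the shares over all 14690 genes, 16.6% that rose and 14.1% that fell; immediate early and SR genes stand at the top and chromosome 19 zinc finger genes at the bottom.

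Homologous recombination and Fanconi anaemia genes, which repair broken DNA and crosslinks, held more falls than rises. In total RNA 15 of 50 members fell and 7 rose, although the median was -0.02, and in nascent RNA 6 of 43 fell and 2 rose (median -0.13). FANCF, an adaptor of the Fanconi core complex (chr11:22622533-22625823), had 29.0 and 24.2 CPM in control cells and 8.37 and 8.52 with THZ531 (log2 fold change -1.66 ± 0.18, adjusted p = 1.7e-05). Its T>C CPM went from 82.4 and 63.7 to 11 and 21.2. BRCA1 went from 152 and 168 to 82.3 and 75.8 (-1.02 ± 0.11, adjusted p = 1.6e-05), and TOPBP1, an activator of ATR, from 129 and 158 to 68.1 and 59.4 (-1.17 ± 0.14, adjusted p = 2.7e-05). Both THZ531 libraries lay below both controls for all 15 genes that fell, which restates the calls.

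BRCA2 fell from 10.9 and 11.4 to 6.78 and 5.47 CPM (log2 fold change -0.86, adjusted p = 0.0036), and SLX4, a scaffold of nucleases, from 5.17 and 7.32 to 1.62 and 1.23 (-2.11, adjusted p = 0.00043). XRCC2 and BRIP1 fell in nascent RNA by 1.70 and 1.58 on the log2 scale. Other well-known members did not pass the test: ATM had 20.2 and 16.9 against 19 and 18.7 CPM (adjusted p = 0.94), and FANCD2 31.6 and 30.9 against 35.1 and 28.3 (adjusted p = 0.92). CHEK1, the checkpoint kinase, rose from 54.6 and 40.3 to 94.7 and 122 (1.19, adjusted p = 7.8e-05), and RAD54L from 5.99 and 3.57 to 14.7 and 15.7 (1.66, adjusted p = 0.00039).

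All 15 genes that fell in total RNA were also called against SRPIN340 and Endovion, and 10 of the 15 when THZ531 was added to Endovion, where none of the 7 that rose was called. Without control replicate 2, 15 members fell, and without THZ531 replicate 2, 11. Among 48 other DNA repair genes 8 rose and 7 fell in total RNA (median -0.11), close to the 16.6% and 14.1% over all genes. ERCC4, a nuclease of nucleotide excision repair, had 34 T>C reads in the control libraries and 0 with THZ531, at least 10.2-fold fewer with 3 reads over the group as the floor, and its total RNA fell from 10.05 and 12.8 to 1.29 and 2.09 CPM (adjusted p = 7.4e-06).

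Zinc finger genes were numerous among the falling transcripts. Chromosome 19 carries clusters of genes for KRAB zinc finger repressors, and of its 235 ZNF genes 210 were tested in total RNA: 80 fell and 18 rose, with a median log2 fold change of -0.51. In nascent RNA 133 passed the filter on low values, 13 fell and 5 rose (median -0.46). ZNF566 had 40.2 and 46.2 CPM in control cells and 8.55 and 10.6 with THZ531 (log2 fold change -2.18 ± 0.17, adjusted p = 1.4e-06), and its T>C CPM went from 67.1 and 84.4 to 15.5 and 12.1 (-2.42, adjusted p = 1.4e-05). ZNF347 went from 20.9 and 20.4 to 5.01 and 4.45 (-2.12 ± 0.18, adjusted p = 2.2e-06), and ZNF557 from 36.5 and 32.9 to 10.1 and 7.88 (-1.94 ± 0.20, adjusted p = 9.4e-06). In all 80 the THZ531 libraries lay below both controls, which restates the calls.

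ZNF302 fell in nascent RNA from 36.4 and 39.8 to 4.52 and 7.06 T>C CPM (log2 fold change -2.74, adjusted p = 0.00017) and ZNF507 from 109 and 125 to 53 and 34.3 (-1.39, adjusted p = 0.00025). Some of the genes with the greatest fitted falls were rare, such as ZNF577 with 2.10 and 1.64 CPM against 0.221 and 0.214, and ZNF442, with 21 reads in the control libraries and 0 with THZ531, at least 6.18-fold fewer. A few members went the other way. ZNF227 rose from 5.75 and 0.796 to 26.5 and 32.3 T>C CPM, but it stood at 35.8 and 52.5 with Endovion alone and 8.06 and 22.4 with SRPIN340. ZNF738 rose in total RNA from 6.81 and 6.77 to 17.9 and 28.6 CPM (1.77, adjusted p = 4.2e-05), and by 1.09 on top of Endovion.

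The same direction was seen beyond chromosome 19. Among ZNF genes of other chromosomes, a group added after the values had been seen, 62 of 201 fell and 34 rose in total RNA (median -0.28). Of all protein-coding genes that fell in total RNA 9.55% had a symbol starting with ZNF, ZSCAN, ZKSCAN, ZFP or ZBTB and a digit. The share was 4.00% of those tested and 2.88% of those that rose. This set is wider than the ZNF lists and takes in genes such as ZFP36L1. For the chromosome 19 list, 69 members fell without control replicate 2, 52 without THZ531 replicate 2, 98 against SRPIN340 and Endovion, and 48 when THZ531 was added to Endovion, where 44 of the 80 were called again. The share of T>C reads was called in 0 of 133 members by edgeR, with a median log2 change of 0.07, and 10 rose and 4 fell at an unadjusted p under 0.05.

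Promoters of falling zinc finger genes are printed in the same way for comparison with those above. ZNF302 lies on the plus strand at chr19:34677428-34677727 and the second promoter of ZNF566 on the minus strand at chr19:36489386-36489685.
ZNF302: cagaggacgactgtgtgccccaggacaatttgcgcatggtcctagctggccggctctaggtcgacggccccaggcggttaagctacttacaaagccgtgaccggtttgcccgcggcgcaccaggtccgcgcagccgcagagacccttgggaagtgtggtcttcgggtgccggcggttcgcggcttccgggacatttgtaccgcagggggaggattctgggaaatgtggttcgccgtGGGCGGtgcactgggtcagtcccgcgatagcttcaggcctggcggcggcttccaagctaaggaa
ZNF566: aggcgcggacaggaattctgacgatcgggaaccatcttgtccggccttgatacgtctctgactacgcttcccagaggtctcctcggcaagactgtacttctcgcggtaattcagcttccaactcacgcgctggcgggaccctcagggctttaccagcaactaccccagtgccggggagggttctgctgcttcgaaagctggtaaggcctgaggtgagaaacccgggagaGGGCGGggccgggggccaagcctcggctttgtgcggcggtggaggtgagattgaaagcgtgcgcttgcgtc
These windows hold GGGCGG, at 14 and at 21 bases before the start, and none of the other motifs. The first promoter of ZNF566, which is not printed, holds none of the motifs searched. Over the 233 promoters of the list (185 of 210 genes matched), 2.58% hold TATAAA, beside 11.5% of all promoters and 20.3% of those of the immediate early list, 4.29% hold TGACGTCA, 47.2% CCAAT and 64.4% GGGCGG. Nothing about the factors that bind these motifs follows from the letters.

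**Figure D3:**
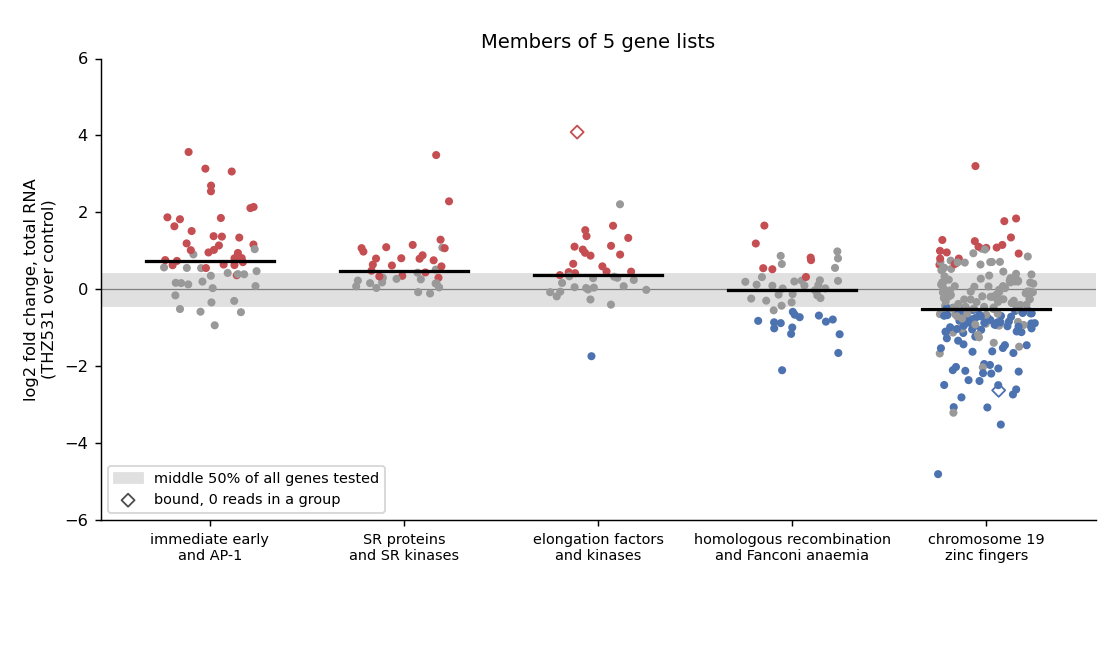
Log2 fold change of total RNA, THZ531 over control, for each tested member of 5 gene lists, with genes that rose in red, genes that fell in blue and others in grey. Black bars are medians, from 0.74 for immediate early genes to -0.51 for chromosome 19 zinc finger genes, the grey band holds the middle 50% of all genes tested, and open diamonds are bounds for SETD2 and ZNF442, which had 0 reads in a group.

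Among the transcription factors of the prostate lineage 7 of 21 fell and 3 rose in total RNA (median -0.24). HOXB13, a homeobox factor of the prostate, went from 111 and 109 to 64.2 and 50.0 CPM (log2 fold change -0.94 ± 0.14, adjusted p = 0.00019), with both THZ531 libraries below both controls. It fell as well when THZ531 was added to Endovion, by 0.70 (adjusted p = 0.0053). SOX9 rose from 122 and 116 to 170 and 215 (0.69, adjusted p = 0.0060). FOXA1 rose in nascent RNA, from 83.0 and 102 to 129 and 222 (0.91, adjusted p = 0.0083), and was at -0.14 on top of Endovion.

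Of genes regulated by androgen 17 of 53 rose and 7 fell in total RNA (median 0.12). KLK3, the gene of prostate-specific antigen, was at 8.09 and 7.53 CPM in control cells and at 5.16 and 2.63 with THZ531 (log2 fold change -0.98, adjusted p = 0.024), whereas FKBP5 rose from 261 and 199 to 294 and 294 (0.36, adjusted p = 0.045).

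Stress and growth lists were mixed. Of genes of protein folding in the endoplasmic reticulum 18 of 44 rose and 2 fell in total RNA (median 0.38), but 9 rose without control replicate 2, 7 rose and 5 fell against SRPIN340 and Endovion, and 2 rose on top of Endovion. HSP90B1, a chaperone of that compartment, had 470 and 254 CPM in control cells and 717 and 751 with THZ531 (log2 fold change 1.02, adjusted p = 0.011). In the integrated stress response 9 of 34 rose and 4 fell (median 0.00). Against SRPIN340 and Endovion 1 rose and 14 fell (median -0.39), and in nascent RNA 1 of 33 rose and 11 fell. The paper reports that both of these compounds activated the unfolded protein response, so a fall against them need not be a fall below control. Nascent SLC7A11, for example, rose over control (0.60) and fell against that reference (-0.79). DDIT3, the CHOP factor, fell from 67.8 and 62.3 CPM in control cells to 33.8 and 28.8 with THZ531 (-1.05, adjusted p = 0.00086). Among p53 targets 10 of 35 rose and 4 fell (median 0.17), beside 16.6% and 14.1% over all genes. GADD45A went from 36.6 and 42.0 to 58.0 and 69.1 (0.69, adjusted p = 0.0037).

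VEGFA, the growth factor of vessels that hypoxia induces, rose from 48.0 and 31.9 to 74.2 and 87.3 CPM (log2 fold change 1.01, adjusted p = 0.00053). In its list of glycolysis and hypoxia genes 10 of 37 rose and 0 fell (median 0.19). VEGFA also stood above the controls with SRPIN340 (67.9 and 64.7 CPM) and Endovion (66.4 and 63.0). Its nascent RNA was not called against those libraries (log2 fold change 0.31, adjusted p = 0.49). BCL2L11, the gene of the pro-apoptotic BIM protein, rose from 14 and 11.1 to 39.99 and 50.2 CPM (log2 fold change 1.84, adjusted p = 7.6e-06). TNF and NF-κB genes had 1 riser and 4 fallers among 25 in total RNA, beside 16.6% and 14.1% over all genes. In total RNA 20 of 79 chromatin regulators rose (25.3%) and 14 fell (17.7%), 17 of 68 mitotic genes rose (25%) and 11 fell (16.2%), and 14 of 65 genes of DNA replication rose (21.5%) and 10 fell (15.4%). Against SRPIN340 and Endovion, where 10.2% of all genes rose and 14.8% fell, more members of these lists fell than rose. Chromatin regulators had 9 that rose and 23 that fell, mitotic genes 4 and 17, and genes of DNA replication 12 and 14. KMT2D, a histone H3 lysine methyltransferase, fell in nascent RNA from 94.5 and 86 to 32.3 and 23.2 T>C CPM (-1.67, adjusted p = 7.1e-05), and SETD1B, of the same function, from 135 and 144 to 65.2 and 35.3 (-1.43, adjusted p = 0.00010). EZH2, the Polycomb methyltransferase, rose from 38.4 and 31.5 to 56.0 and 65.1 CPM (0.79, adjusted p = 0.0010).

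Of the genes of the Wnt, Notch, TGF-β and Hippo pathways 21 of 60 rose (35%) and 8 fell (13.3%) in total RNA (median 0.21), with 11 that rose and 7 that fell against SRPIN340 and Endovion. Of receptor tyrosine kinase, MAPK and PI3K genes 7 of 46 rose (15.2%) and 5 fell (10.9%), near the 16.6% and 14.1% over all genes, with a median of 0.22. SMAD6, an inhibitor of BMP signalling, fell from 12.4 and 17.5 to 2.65 and 1.61 CPM (log2 fold change -2.77 ± 0.28, adjusted p = 9.4e-06) and by 1.97 on top of Endovion. TSC1, a brake on mTORC1, fell from 29.2 and 29.1 to 9.10 and 10.8 (-1.55 ± 0.18, adjusted p = 3.0e-05) and by 0.85 on top of Endovion. Both THZ531 libraries were below both controls for these genes.

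The next counts stand beside 16.6% that rose and 14.1% that fell in total RNA over all genes. Among the general factors of RNA polymerase II 9 of 37 rose and 6 fell in total RNA. GTF2E1, the large subunit of TFIIE, fell from 28.7 and 31.2 to 10.7 and 6.81 CPM (log2 fold change -1.76 ± 0.19, adjusted p = 1.7e-05). Mediator subunits had 8 that rose and 7 that fell of 32, and MED13, of its kinase module, fell in nascent RNA from 119 and 121 to 68.5 and 50.4 (-0.99, adjusted p = 0.0057). Of genes of translation initiation and elongation 14 of 49 rose and 1 fell in total RNA (median 0.20), but 0 were called on top of Endovion. NUP98, a nuclear pore protein, rose from 22.7 and 23.7 to 45.7 and 62.7 (1.22 ± 0.17, adjusted p = 0.00013) and by 0.77 on top of Endovion (adjusted p = 0.011). Among mitotic genes CCNB1, the cyclin of mitotic entry, fell in nascent RNA from 269 and 362 to 160 and 167 (-0.95, adjusted p = 0.00037). The kinase AURKB fell from 330 and 535 to 274 and 220 (-0.80, adjusted p = 0.0022). Against SRPIN340 and Endovion AURKB was called (-0.56, adjusted p = 0.023) and CCNB1 was not (-0.25, adjusted p = 0.46). Neither was called on top of Endovion (adjusted p = 0.19 and 0.17). PRC1, KIF20A and NCAPH rose in nascent RNA (1.79, 1.28 and 2.29), but were called in neither of these comparisons.

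Cytosolic ribosomal protein genes held no calls. By edgeR 0 of 75 cytosolic ribosomal protein genes were called in total RNA (median -0.05) and 0 of 68 in nascent RNA (median -0.10). DESeq2 called 0 in both, and at an unadjusted p under 0.05 by edgeR 2 rose and 3 fell in total RNA and 1 rose and 5 fell in nascent RNA. In total RNA, of 75 nuclear-encoded subunits of the respiratory chain 6 rose (8%) and 2 fell (2.67%), and of 39 proteasome subunits 6 rose (15.4%) and 1 fell (2.56%), with medians of -0.02 and 0.04. Of 75 mitochondrial ribosomal protein genes 12 rose and 12 fell (16% each), close to the 16.6% and 14.1% over all genes, with a median of -0.04.

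When THZ531 was added to Endovion, 0.452% of genes rose and 0.855% fell in nascent RNA, and 2.29% rose and 5.92% fell in total RNA. Of the 384 genes that rose with THZ531 alone, 297 kept the sign there and 26 were called, which is 6.77% of the 384 and 57.8% of the 45 genes called upward, and their median log2 fold change went from 1.24 to 0.26. Of the 358 that fell, 333 kept the sign and 63 were called (17.6% of the 358 and 74.1% of the 85 called downward), with a median of -1.35 against -0.63. The 2 comparisons contrast different libraries but take their spread from the same fit.

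Set against the cells given SRPIN340 or Endovion, which shares the THZ531 libraries with the main comparison, THZ531 had 2.59% of genes up and 3.83% down in nascent RNA and 10.2% up and 14.8% down in total RNA. There 85 of the 384 risers and 223 of the 358 fallers were called the same way, with medians of 0.42 and -1.11. A test of the difference between the effect of THZ531 with and without Endovion called 0.0201% of genes upward and 0.282% downward in nascent RNA.

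**Figure D4:**
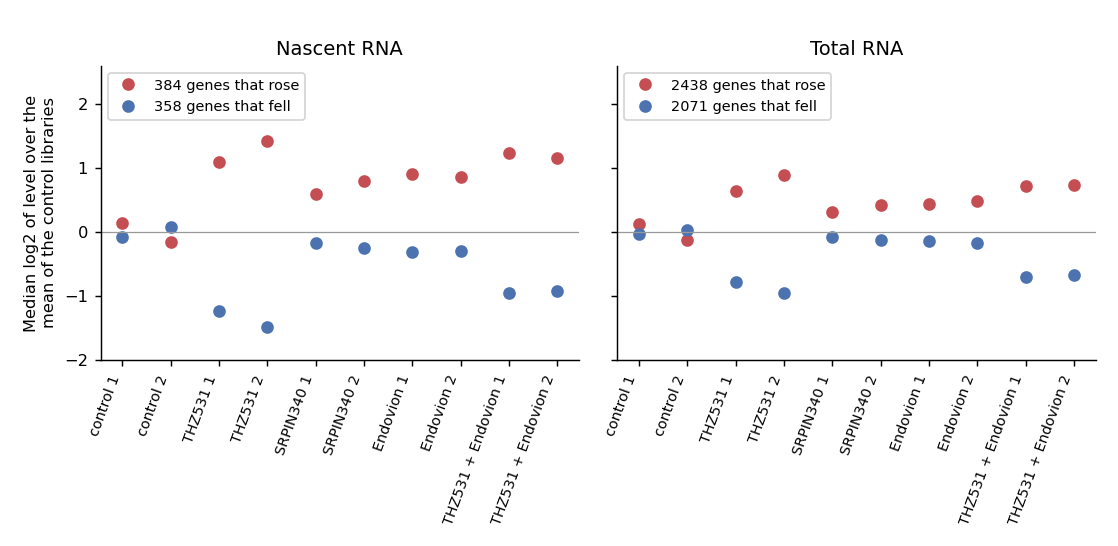
Median log2 ratio to the mean of the control libraries in each of the 10 libraries, for the genes that rose (red) and fell (blue) with THZ531 in nascent (left) and total RNA (right). The control and THZ531 libraries chose these genes, so only the other 6 libraries are a further view of them; there the falling genes lie near 0 without THZ531 and low with it, and the rising genes lie above 0 in every treated library.

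Library by library, the rising genes were above the controls in every treated group. In nascent RNA their median log2 ratio to the control mean was 1.10 and 1.42 in the THZ531 libraries, which chose them, 0.59 and 0.79 with SRPIN340, 0.91 and 0.87 with Endovion, and 1.24 and 1.16 with THZ531 and Endovion. The falling genes were low mainly where THZ531 was present, at -1.23 and -1.47 with THZ531, -0.17 and -0.25 with SRPIN340, -0.31 and -0.29 with Endovion, and -0.94 and -0.92 with both. These medians are descriptions, and how far the level of the 2 control libraries sets the rises was not tested.

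**Figure D5:**
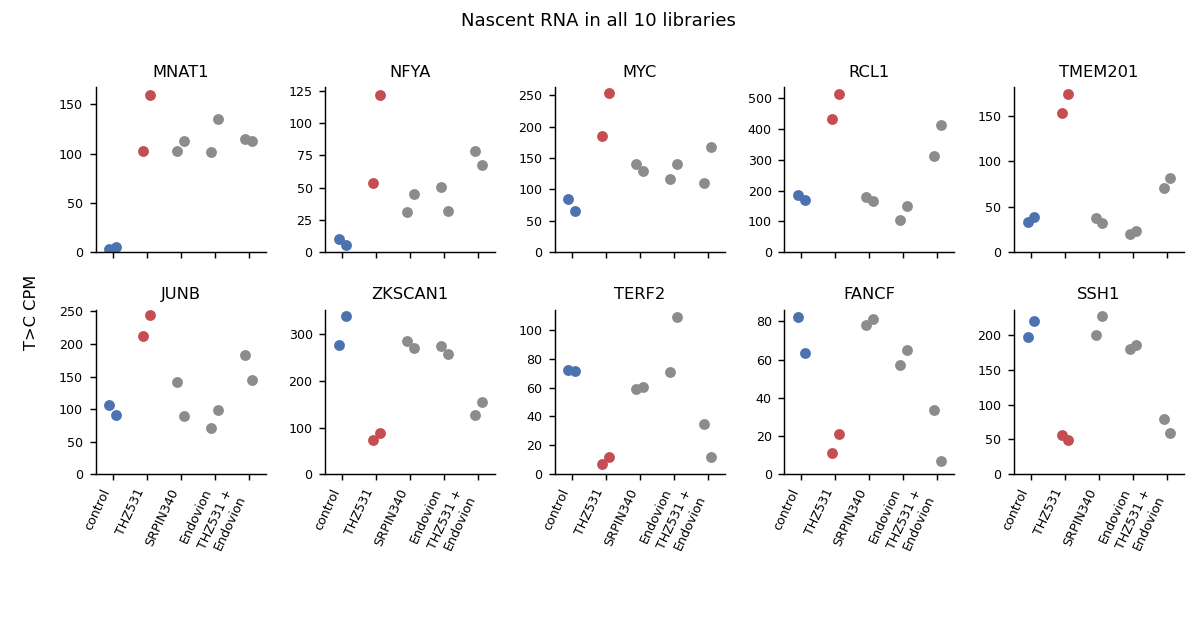
T>C CPM of 10 genes in all 10 libraries, control in blue, THZ531 in red and the other groups in grey, 2 points a group, each panel with its own axis from 0. MNAT1, NFYA and MYC are lowest in the control libraries, RCL1 and TMEM201 are high where THZ531 was given, and ZKSCAN1, TERF2 and FANCF are low there.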

How the data were processed

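SLAM-seq libraries of 22RV1 cells, made with a 3′ end kit (QuantSeq), were compared. The authors counted reads and T>C reads per 3′ interval with SLAM-DUNK (version not given in the sources used here) on hg38 and deposited 1 table per library, in which 2 columns are counts, 1 is a fraction (T>C conversion rate) and 1 is a score (reads scaled to the library), used here only to recover the number of mapped reads. The submitters' processing notes name Bowtie2 2.3.4.1, SAMtools 1.6 and DESeq2 1.38.2. Whether molecular identifiers were collapsed is not given in the sources used here, and intervals and floors cover counting error only.

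Of 104653 intervals, 92910 matched a gene (GENCODE v44); of overlapping intervals of a gene the best covered was kept, and 57437 were summed over 31015 genes. This left out 3.53% of T>C reads as unmatched, and 1582 genes share an interval. For the counts the test was that of edgeR 4.0.16 under R 4.3.3 (quasi-likelihood with robust estimates, TMM factors, filterByExpr, all 10 libraries as 5 groups, 5 residual degrees of freedom) with Benjamini-Hochberg adjustment over all genes tested. The share was tested as T>C against other reads with the library as a block. "On top of Endovion" means THZ531 with Endovion against Endovion.

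Genes named by rule were the 12 protein-coding genes with the smallest p in each direction in nascent RNA and 5 in total RNA and share (at least 20 reads in the higher group, log2 fold change of at least 1, groups apart), up to 3 per direction and list, the targets and the members of the lists described in full. Some genes that meet these rules are not reported here. Any other gene named from a list was chosen after its values were seen. Wherever libraries are said to lie apart, this describes the values that gave the call and adds no support to it. The members and lists were chosen with earlier results of these data known. Alternatives were DESeq2 1.42.0, RLE factors, other filters, other ways of summing intervals, the 2 groups alone, each library left out, a replicate block and SRPIN340 and Endovion as reference, the last added after seeing the data. The pipeline was tested on simulated data. Replicate correlations (log2, nascent) were 0.90 for control and 0.91 for THZ531.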

Additional observations from a re-analysis of the deposited data

Results flagged for a closer look

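For 13 of the named genes the effect of THZ531 in nascent RNA differed with and without Endovion by an interaction test in edgeR (adjusted p under 0.05), and each difference (effect with Endovion minus effect without, log2) was negative. It was -5.07 for MNAT1, -2.58 for NFYA, -1.45 for PNRC1, -1.43 for NUDT21, -1.25 for SNRPF and -1.42 for MYC. Among genes named from lists it was -2.37 for POLR2B, -1.14 for HNRNPF, -1.80 for PRC1, -1.34 for PABPC4, -2.84 for MRPL16, -2.99 for NDUFB3 and -3.19 for ZNF227. These genes were named for a change over the same control libraries, and the difference subtracts that change. A negative sign was thus favoured in advance for genes that rose. All 13 had risen with THZ531 alone. Their levels in the SRPIN340 and Endovion libraries lay above the controls as well: MRPL16, for example, had 7.03 and 3.19 T>C CPM in control cells, 34.9 and 68.6 with THZ531, 20.8 and 46.6 with SRPIN340, 38.1 and 46.8 with Endovion and 56.3 and 55.6 with both. MNAT1, of which 54.5% and 27.2% of reads were T>C reads with THZ531 and 2.70% and 11.1% in control cells, had total RNA of 6.59 and 2.27 against 10.8 and 31.1 CPM. Its shares with THZ531 stand beside 5.63% and 5.23% over all genes in those libraries, and whether all these reads are new RNA was not tested. What set the control level of these genes was not tested.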

How the results depend on the processing

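With 2 libraries a group, single libraries decide much. Leaving out 1 of the 4 libraries gave 123 to 392 genes that rose and 118 to 288 that fell in nascent RNA, 831 to 2464 and 1191 to 2068 in total RNA, and 4 to 25 and 1 to 65 in the T>C share; THZ531 replicate 2 and control replicate 2 gave the lowest counts of rises in total RNA. For THZ531 on top of Endovion, leaving out 1 library gave 6 to 29 and 10 to 51. The 2 groups alone gave 241 rises in nascent RNA, 1488 in total RNA, 5 rises and 8 falls in the share, and 25 and 42 on top of Endovion. Plain summing of all intervals, which counts shared reads repeatedly, gave 129 and 118 in nascent RNA, 1 and 0 in the share and 1 and 0 on top of Endovion. The study's threshold gave 630 falls in nascent RNA, 1019 and 1155 in total RNA and 213 and 228 in the share. DESeq2 gave 28 and 50 on top of Endovion and kept the other counts within 1.5 times (nascent 286 and 257, total 2534 and 2077). In the share, no filter on low counts gave 19 and 101, RLE factors 38 falls, leaving out genes over 20% T>C in control 7 and 7, and SRPIN340 and Endovion as reference 6 and 3; that reference gave 1503 rises in total RNA. In total RNA 336 and 870 genes were called on top of Endovion.

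Same-numbered THZ531 and control libraries did not deviate together (correlations of -0.07 in nascent and -0.23 in total RNA), so the numbers were not taken to pair them; SRPIN340 and THZ531 libraries had correlations of 0.06 and 0.32, and THZ531 with Endovion and Endovion libraries 0.03 and 0.09. The replicate block gave 403 and 365 genes in nascent RNA, 2350 and 2041 in total RNA, 9 and 22 in the share and 51 and 89 on top of Endovion, and the crossed pairing, chosen after seeing the data, 2789 and 2255 in total RNA.

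Among named genes and settings 2130 values kept direction and call, 507 lost the call, 3 gained it and 15 turned. With only the best interval the log2 fold change was -0.85 for SON and 0.17 for SRP19. Against SRPIN340 and Endovion the nascent value was -0.0629 for PABPC1, -0.0247 for LSM8, -0.22 for APEX1, -0.27 for PRC1, -0.0621 for DNMT1, -0.11 for PABPC4, -0.79 for SLC7A11, 0.0085 for KRT19 and -0.0800 for ARCN1, and the share was -0.0595 for MNAT1. With 1 library left out, nascent CDK12 ranged from -0.12 to 0.72, CCNK from -0.0293 to 0.12 and MRPL13 from -0.49 to 0.13. The cause of these changes was not tested.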
